A study of Macaca mulatta with 38 samples.

Results

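The barcodes described here were first listed in blood cells at day 266 or later after transplantation, and were then listed in both myeloid and lymphoid cells. They were chosen from the counts themselves. A barcode qualified when it had no listed read in the 12 libraries of days 32, 119 and 187, a listed read in at least 1 Gr or Mono library from day 266, and a listed read in at least 1 T or B library from day 266. This gave 221 of the 44423 barcodes in the table. The choice fixed their absence early and their presence in both branches late, so those facts are a description and were not tested.

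All samples came from 1 male rhesus macaque, ZL34, 4 years old. Its CD34+ cells were mobilised with G-CSF and AMD1300, exposed to a barcoded lentiviral library at a multiplicity of infection of 25, and returned after TBI, and the animal received 5 mg/kg cidofovir weekly against CMV. No untransplanted or unbarcoded animal is among the samples, and every library carries the same treatment. Peripheral blood gave 9 T, 8 B, 7 Gr (granulocytes), 7 Mono (monocytes), 5 nRBC (nucleated red cells), 1 EOS and 1 CD34p library, with 1 library for each cell type and day, so spreads below are over days of the same animal. The rule read the 12 early libraries and the 19 T, B, Gr and Mono libraries from day 266, which are 6 T, 5 B, 4 Gr and 4 Mono. The nRBC, EOS and CD34p libraries played no part in it.

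A lentiviral barcode is a short random DNA tag written into the genome of a transduced stem or progenitor cell, and every descendant of that cell inherits it. A tag found in both granulocytes or monocytes and T or B cells marks output to both branches of blood formation, which a multipotent stem or progenitor cell can give. Granulocytes and monocytes live briefly and reflect recent output, whereas T and B cells can persist for long periods. In many transplants, short-lived progenitors supply blood first and longer-lasting stem cell clones are recognised later. One cell can carry several tags at a high multiplicity of infection, so barcodes are not a count of cells.

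The sequences below are examples of the members described later. bc3522, bc4467, bc3676 and bc10169 are among those of highest share, and bc3538, bc3676 and bc3948 were listed in the most libraries. bc7384 had the highest Mono share at day 365 and bc12811 the highest nRBC share, and bc1 and bc2 belong to the expanding clone. The expanding clone is the set of 6 barcodes, bc1 to bc6, with a mean share of at least 10% of reads in the nRBC libraries. Barcodes are numbered by mean share over the 38 libraries. Each sequence is the deposited run of 50 bases, 5′ to 3′. Capitals mark the variable part between the common start and the sequencing adapter.
bc3522: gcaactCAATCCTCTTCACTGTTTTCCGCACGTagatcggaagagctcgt
bc4467: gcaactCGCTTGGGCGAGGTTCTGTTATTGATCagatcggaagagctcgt
bc3676: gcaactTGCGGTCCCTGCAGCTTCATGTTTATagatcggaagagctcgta
bc3538: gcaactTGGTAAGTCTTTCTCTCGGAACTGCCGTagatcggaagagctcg
bc3948: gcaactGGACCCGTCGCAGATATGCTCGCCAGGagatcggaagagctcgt
bc10169: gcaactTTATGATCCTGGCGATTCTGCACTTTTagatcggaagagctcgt
bc7384: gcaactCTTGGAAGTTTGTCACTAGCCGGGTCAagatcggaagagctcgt
bc12811: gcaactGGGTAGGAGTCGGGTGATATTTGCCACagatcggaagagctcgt
bc1: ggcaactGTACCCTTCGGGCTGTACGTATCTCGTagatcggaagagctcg
bc2: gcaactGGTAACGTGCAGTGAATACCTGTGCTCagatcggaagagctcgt

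By count of mismatches the members were not close to more abundant barcodes, but almost no barcode of the table was. No member lay within 5 mismatches of a barcode with a higher mean share, also when the sequences were shifted by 1 base. Of 44422 barcodes compared in all, 8 (0.018%) lay within 5 and 0 within 2. Variants with a base inserted or lost inside the sequence were not searched for. The nearest barcode of higher mean share was 6 to 16 mismatches away, with a median of 11, against a median of 10 over all barcodes of the table. To the nearest barcode of the expanding clone the distance was 13 to 33 mismatches, with a median of 18. Members differed from their nearest fellow member by 10 to 30 mismatches. Their common start was GCAACT in 218 of 221 (98.6%) and GGCAAC in 3, against 98.5% with GCAACT in the whole table. The adapter began after 33 bases in 166 members (75.1%) and in 79.2% of all barcodes. The mean GC content of bases 7 to 33 was 52.2% ± 9.23 (SD over 221 members) and 53.3% ± 9.75 over the table. In none of these features was a test made.

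The label of late emergence holds for the listing, while the counts leave the early level of many members unknown. No count from 1 to 100 occurs in the table, so a listed 0 is taken as 100 reads or fewer, a limit inferred from the values. In the early libraries that is 0.00301% to 0.00695% of the kept reads, which range from 766039 to 3832849 over all 38 libraries. The highest share of a member in any library ran from 0.00323% to 0.0445%, with a median of 0.00762%. In T, B, Gr or Mono, 133 of 221 members (60.2%) exceeded the highest early limit on some day, 41 exceeded it by over 2 times and 3 by over 5 times. The other 88 never exceeded the limit of the least sensitive early library, Gr of day 32. Within Gr, 59 of the 145 members listed late exceeded the highest early Gr limit, and within Mono 29 of 111 did.

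The counts behind the members are small. A member's highest count had a median of 224 reads and a range of 101 to 1131, and 86 members (38.9%) never exceeded 200 reads. Just inside the rule stood members whose highest count was 101. Just outside it stood 507 barcodes with the same late listing and a count in exactly 1 early library. Their early count had a median of 154 reads, and 351 of the 507 (69.2%) had 200 or fewer there. For 134 of them the early library was Gr of day 187, and for 126 it was B of day 187.

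Most barcodes as low in share as the members had been listed early, but the portion that had not was higher at lower shares. Of all barcodes at up to 0.005% of reads in Gr of day 266, 11.7% (87 of 744) had not been listed by day 187. The portion was 6.83% between 0.005% and 0.01%, 2.25% between 0.01% and 0.02%, 0.608% between 0.02% and 0.05%, and 0 of 202 above that. In B of day 266 the same portions were 24.1%, 20.1%, 5.62%, 1.19% and 0 of 54.

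Late listing in both branches was rare among barcodes as a whole. Of the 16532 barcodes listed in both a myeloid and a lymphoid library on any days, 81.6% were first listed at day 32, 11.3% at day 119 and 5.67% at day 187. Day 266 added 217 (1.31%), and day 365 added 4. None was first listed after day 365. To count here, a barcode first listed later would need a Gr or Mono listing at day 494 or 553. Gr listed only 22 and 18 barcodes on those days and Mono 12 and 13, all of them already listed by day 187. The absence of later additions was thus set by those listings and is no measure of rarity. At day 365 Gr and Mono listed 69 and 197 barcodes, so the 4 are limited in the same way. Of the 6531 barcodes unlisted by day 187, 6158 were later listed in T or B but not in Gr or Mono, 149 in Gr or Mono but not in T or B, and 3 in neither.

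Most members were first listed in myeloid cells at day 266, and in a single lineage. Of the 221, 217 were first listed at day 266 and 4 at day 365. At first listing 76 were in Gr alone, 52 in Mono alone and 23 in Gr and Mono together, while 2 were in B alone and 1 in T alone. The other members were listed in both branches on their first day, and the most common such pairing was B with Gr, in 22. By branch, 151 (68.3%) had an earlier myeloid than lymphoid day, 67 had the same day for both, and 3 had the lymphoid day first. The rule required a myeloid listing, and after day 266 the myeloid libraries listed few barcodes at all, so this order was in part set by the choice.

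The day of first lymphoid listing was spread over the rest of the series. It fell on day 266 in 66 members, on day 365 in 66 and on day 393 in 61, and on days 494, 536 and 553 in 4, 7 and 17. The low number at day 494 coincides with the smallest T and B libraries, where a listed 0 allows up to 0.0131% in T and 0.0127% in B. How far those limits lowered the number was not tested.

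The lineage makeup was weighted to B, as was the listing of barcodes in general. On each shared late day B listed more barcodes in all than T, with 8981 against 4565 at day 266 and 7935 against 3142 at day 553. Listed in Gr and B alone were 55 members, in Mono and B 43, and in Gr, T and B 40. Listed in Gr, Mono and B were 24, in Mono, T and B 22, in Gr and T 15, in Mono and T 11, in all 4 lineages 7, and in Gr, Mono and T 4. Thus 122 members (55.2%) had late B without T, 69 (31.2%) had both and 30 (13.6%) had T without B. Among the 5162 barcodes already listed by day 187 with the same late listing, the portions were 30.2%, 65.6% and 4.13%. B without T thus exceeded T without B there too, so a weight to B was not particular to the members. Those earlier barcodes were also more abundant, with a median highest late share of 0.0187%, and were listed in a median of 6 late libraries against 3 for the members.

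In granulocytes the members were seen on 1 day. At day 266 Gr listed 145 of the 221, together 1.11% of reads (exact 95% interval 1.10 to 1.12%, counting error only), with single shares of 0.00355% to 0.0253%. At days 365, 494 and 553 Gr listed none of them, with limits of 0.00276%, 0.00263% and 0.00263% for each member. The expanding clone held 15.6% of Gr reads at day 266 and 91.7%, 94.1% and 99.8% on those later days. Gr listed 4871 barcodes in all at day 266 and then 69, 22 and 18. The members therefore left the listing together with nearly all other barcodes, and a share below the limit was not detectable.

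Monocytes gave the same sequence with 1 later day. At day 266 Mono listed 103 members with 0.513% of reads in sum (0.505 to 0.521%), when the clone held 41.1%. At day 365 it listed 8 members with 0.0427%, when the clone held 91.7%, and at days 494 and 553 none, when the clone held 99.9% and 99.8%. The limit for each member was 0.00471% at day 494 and 0.00264% at day 553. The Gr and Mono libraries of day 266 shared 34 members, which is 23.4% of the 145 in Gr and 34 of the 103 in Mono. Among barcodes already listed by day 187 with the same late listing, 57.3% of those in that Gr library were also in Mono, and 74.0% of those in Mono were also in Gr. Those barcodes were more abundant, with a median highest late share of 0.0187% against 0.00762% for the members. The overlap was not compared at equal share.

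Nearly the whole set rests on these libraries of day 266. 214 of 221 members had a myeloid listing there. Without day 266 in the rule, 8 members were left. Without the Gr library of that day 111 were left, and without the Mono library 152. A total of 186 members had reads in a single myeloid library and 35 in 2. Reads in at least 2 myeloid and at least 2 lymphoid late libraries were found for 17 members, all of them in both Gr and Mono.

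The 8 barcodes listed in Mono at day 365 were also listed in T on that day. They were bc7384, bc10158, bc10549, bc13714, bc15653, bc20202, bc21614 and bc28989, named after their values were seen. At day 365 bc7384 made up 0.0103% of Mono, 0.0157% of T and 0.0125% of B reads, after 0.00386% of Gr and 0.00427% of B at day 266. bc10549 was listed on day 365 only, at 0.00842% in Mono, 0.0112% in T and 0.0124% in B. The others held 0.00327% to 0.00613% in Mono. In B, 7 of the 8 were listed at day 365, all but bc28989. Among all 191 barcodes outside the clone listed in Mono at day 365, 86.9% were listed in T and 96.3% in B of that day, so the 8 are close to that background. Their presence in Mono rests on 103 to 324 reads each. None of the 8 was listed in Mono at day 266, whereas 76.4% of the 191 barcodes were. Of the 191, 182 had been listed by day 187 with the same late listing. The comparison was not made at equal share.

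In B cells some members were listed on every late day, though not the same ones throughout. The B libraries of days 266, 365, 393, 494 and 553 listed 52, 83, 103, 16 and 78 members. Their sums were 0.364%, 0.681%, 0.614%, 0.310% and 0.443% of reads. The mean was 0.482% ± 0.160 (SD, n = 5 days). Of the 103 members in B at day 393, 32 were listed in B again at day 553. On the same days the expanding clone held 10.6%, 7.24%, 3.44%, 5.29% and 41.4% of B reads. Of B reads outside the clone, the members held 0.407%, 0.735%, 0.635%, 0.328% and 0.755%. The sum was thus lower at day 553 than at days 365 and 393 as a share of all reads, but not as a share of reads outside the clone.

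In T cells fewer members were listed and their sums were smaller. The T libraries of days 266, 365, 393, 494, 536 and 553 listed 21, 28, 43, 2, 34 and 19 members. The sums were 0.134%, 0.238%, 0.287%, 0.0600%, 0.189% and 0.125% of reads, a mean of 0.172% ± 0.0827 (SD, n = 6 days). The clone held 5.40%, 14.4%, 2.92%, 3.98%, 13.1% and 48.9%. Of T reads outside the clone, the members held 0.142%, 0.278%, 0.296%, 0.0625%, 0.218% and 0.244%. On the 5 shared days the sum in B was higher than in T on 5 of 5, by 2.13 to 5.17 times. As a portion of all barcodes listed in the library, the ratio of B to T was 1.21 to 2.47. A sum over members chosen with results known was given no test.

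The members stayed far smaller than the expanding clone. Each of the 6 clone barcodes was listed in all 26 libraries from day 266 and in 10 or 11 of the 12 early ones, and its highest late share was between 16.2% and 21.7%. The members together never held more than 1.11% of a library. From day 266 to day 553 the clone went from 15.6% to 99.8% of Gr and from 10.6% to 41.4% of B reads. Over those days the members' sum was 1.11% and then 0 listed in Gr, and 0.364% and 0.443% in B.

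Persistence of single members was modest. Of the 221, 74 were listed in 2 libraries, the least the rule allows, 65 in 3, 39 in 4 and 43 in 5 or more. By day, 19 were listed on 1 day only, 92 on 2, 71 on 3, 31 on 4, 7 on 5 and 1 on 6. After day 266, 206 (93.2%) had reads in T or B and 8 in Gr or Mono. For 151 members the rule itself required that later T or B listing, as they had none at day 266. For 7 of the 8 it required the later myeloid listing. Of the 63 members listed in both branches at day 266, 48 (76.2%) were listed in T or B again later. At day 553, 89 (40.3%) were listed in T or B, 8 of them in both, against 66.7% of the barcodes listed earlier with the same late pattern. In 17 of the 89 that was the first lymphoid listing, without which they would not be members. Of the 83 members in B at day 365, 29 were also in B at day 393, which is 34.9% of the first and 28.2% of the 103 in the second. For the barcodes listed earlier these portions were 82.2% and 74.3%. Those barcodes were more abundant, and repeat listing was not compared at equal share.

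The member listed most widely was bc3538, in 10 libraries. In myeloid cells it held 0.0159% of Gr (452 reads) and 0.0158% of Mono reads (494) at day 266. Its B shares were 0.00365%, 0.0119%, 0.0225% and 0.00425% on days 266, 365, 494 and 553. Its T shares were 0.00472%, 0.0110% and 0.00675% on days 365, 536 and 553. It was also among the 3 members seen in nRBC, at 0.00292% (111 reads) at day 393. This was thus a barcode in all 4 lineages and in nRBC, at no more than 0.0225% in any.

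bc3676 and bc3948 were seen in 8 libraries each. The Gr share of bc3676 on day 266 was 0.00663%. Its T shares on days 365, 393, 494, 536 and 553 were 0.00586%, 0.0118%, 0.0359% (275 reads), 0.00428% and 0.0141%. Its B shares were 0.00708% and 0.00963% on days 365 and 553. At day 266 bc3948 made up 0.00421% of Gr and 0.00359% of T reads. Its later T shares were 0.0199%, 0.0115% and 0.0202% on days 365, 393 and 536, and its B shares 0.0145%, 0.0107% and 0.00484% on days 365, 393 and 553. Both were thus found in 5 and 4 T libraries, respectively, and in a single myeloid one.

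bc7215 and bc8244 were each listed in 7 libraries. bc7215 made up 0.0115% of Gr reads on day 266, 0.0118% at its highest in B (day 365) and 0.00656% at its highest in T (day 536), and was not listed after that day. The shares of bc8244 at day 266 were 0.00656% in Gr and 0.00782% in B. It reached 0.00872% of T reads on day 553, and was also in nRBC at day 393 with 108 reads.

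The highest share of any member was that of bc3522, at 0.0445% of B reads at day 365 (1131 reads, exact 95% interval 0.0419 to 0.0471%). Its Gr share on day 266 was 0.0158%. On day 393 it made up 0.0180% of B and 0.0158% of T reads, and on day 553 0.00567% of B reads. bc3440 had the highest mean share of the members and was listed in no T library. It made up 0.0205% of Gr and 0.00459% of B reads on day 266, then 0.0225%, 0.0332% and 0.0211% of B reads at days 393, 494 and 553. Also without T were bc6386 and bc6519. The Gr share of bc6386 was 0.0144% on day 266 and its highest B share was 0.0341%, on day 494. bc6519 made up 0.0102% of Gr and 0.00422% of Mono reads on day 266, and 0.0275% of B reads on day 365. bc6557 was at 0.00828% in Gr on day 266, 0.0329% in B on day 494 and 0.00687% in T on day 553.

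The reverse lymphoid pattern was that of bc4467, which was listed in no B library. On day 266 it made up 0.00993% of Gr and 0.0112% of T reads. Its T share was 0.0371% on day 365 (811 reads, 0.0346 to 0.0398%) and 0.0211% on day 393, its last. bc6040 was mainly in T, with 0.0225% and 0.0242% on days 393 and 494, against 0.00335% in B on day 393 and 0.00352% in Mono on day 266. In bc10169 and bc7627 the highest share was in Gr of day 266. It was 0.0253% (722 reads) in bc10169, with 0.00403% in Mono, and 0.0248% in bc7627, with 0.00442% in Mono. Both were later listed in B at day 393, at 0.00392% and 0.00825%.

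T and B were compared by edgeR's quasi-likelihood test over their 5 shared days from day 266, with day as a block. The rule asked for a read in either, so it did not set the direction, but a member listed in only 1 of the 2 had to differ. Only 16 of the 221 members had at least 0.01% of reads in at least 2 of the 10 libraries and could be tested. None of the 16 passed an adjusted p under 0.05, against 210 of 3801 barcodes in all (5.52%). At an unadjusted p under 0.05 there were 2 of the 16, against 24.2% of all barcodes tested. DESeq2 called 7 of the 16, against 49.7% of all. In 12 of the 16 the fitted level was lower in T and in 4 it was higher. Over all 3801 barcodes tested it was higher in T in 840, so the members were close to that background. Of the 12 members lower in T, bc3440, bc6519, bc6754, bc7390, bc7546 and bc8569 were listed at 0 on all 5 T days. They reached 0.01% through B alone, so their direction was set in advance, as was that of bc4467, at 0 in B. Among the 10 libraries, bc3538 and bc6534 reached 0.01% in B only, and bc3676 and bc6040 in T only, although listed in both. For these too the filter favoured the direction. The 12 of 16 and the median of the members were thus in part set by the filter. Over the 16 the median log2 difference (T minus B) was -5.71, against -3.53 over all barcodes tested. This order was not stable to the treatment of zeros. With each 0 set to 100 reads the medians were -0.48 in the members and -0.73 over all, and by DESeq2 -1.50 and -1.52. Serial libraries of 1 animal are not independent samples, so the p-values do not measure a spread between animals.

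The lowest adjusted p-values were those of bc3440 and bc4467. Each met the filter on share through 1 lineage only, B for bc3440 and T for bc4467, so each had to differ and the values describe that listing. bc3440 held 0.0163% ± 0.0137 in B (SD, n = 5 days, listed on 4) and was listed at 0 on all 5 days in T. With each T zero at 100 reads it was at least 3.03-fold higher in B, with an adjusted p of 0.0987 by edgeR. bc4467 held 0.0139% ± 0.0157 in T (listed on 3 of 5 days) and 0 in B, so its T level was at least 2.67-fold higher (edgeR, adjusted p = 0.155). bc3948 held 0.00700% ± 0.00861 in T and 0.00602% ± 0.00648 in B, a log2 difference of 0.25 ± 3.78 (SE, adjusted p = 0.978 by edgeR). The SE of that difference leaves large differences in either direction possible.

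No member showed a slope over the late days that passed the test. edgeR fitted a common slope per 100 days to the 11 T and B libraries with an intercept for each lineage. It called 0 of 16 members and 0 of 3872 barcodes (0%), with 5 and 138 (3.56%) at an unadjusted p under 0.05. DESeq2 called 1 of the 16 and 77 in all (1.99%). The largest unadjusted evidence was for bc4919, whose T and B share changed by 3.82 ± 1.54 per 100 days on the log2 scale (SE, adjusted p = 1 by edgeR). The other members at an unadjusted p under 0.05 had negative slopes: bc7384 (-5.36), bc10549 (-5.18), bc4467 (-3.71) and bc6534 (-3.10). These sizes rest in part on zeros, and several directions followed from the days that met the filter. In T and B, bc10549 was listed on day 365 only, bc7384 reached 0.01% on that day only, and bc4467 was last listed on day 393. The 5 of 16 is therefore no measure against the 3.56%. bc4919 was first listed in T or B at day 365 and reached at most 0.0210% there. With each 0 set to 100 reads, 2 of the 16 were at an unadjusted p under 0.05 by edgeR, against 133 of 3872 in all. bc4919, bc6534, bc7384 and bc10549 were named after their values were seen.

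The libraries that the rule did not use listed almost none of the members. In nRBC, 0 were listed at days 266, 309, 494 and 553 and 3 at day 393, with 0.0231% of reads in sum. These were bc12811 with 0.0174% (660 reads, 0.0161 to 0.0187%), bc3538 with 0.00292% and bc8244 with 0.00284%. bc12811 was otherwise listed on day 266 only, at 0.00387% in Mono and 0.00456% in B, so its highest share was in nRBC. None of the 3 was listed in T or B of day 393. Of the 195 barcodes outside the clone in that nRBC library, 49.7% were in T and 76.9% in B of that day. bc3538 and bc8244 rest on 111 and 108 nRBC reads, and the comparison was not made at equal share. The nRBC library of day 393 listed 201 barcodes in all and the other nRBC libraries 9 to 30. EOS of day 494 and CD34p of day 553 listed 0 of 221, with limits of 0.00265% for each member in both libraries. The clone held 98.2% of nRBC reads at day 393, 99.7% in EOS and 99.9% in CD34p.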

How the data were processed

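Per the labels' protocols, each barcode PCR took 200 ng of genomic DNA and 28 cycles. The authors deposited read counts per barcode and library, with no normalization stated. Neither counting program nor minimum count is stated in the sources used. The smallest count above 0 is 101, and each library's lowest lies between it and 117, whence a 0 was read as 100 reads or fewer. Shares are percent of each column sum (766039 to 3832849 kept reads). PCR reads are not independent molecules, so exact Clopper-Pearson intervals (95%) cover counting error only. edgeR 4.0.16 was run in R 4.3.3 with column sums as library sizes, on barcodes that reached 0.01% of reads in 2 or more libraries of the fit, with Benjamini-Hochberg adjustment over all tested and a threshold of 0.05, and was tested on simulated data. DESeq2 1.42.0 was an alternative.

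Named are the 10 members of highest share in any library, the 5 listed in most late libraries, and up to 3 called members in each direction of each edgeR fit (there were none). Others are named after their values were seen. The members and rules were chosen with earlier results of these data known. No batch is given in the labels. Mismatches were counted over the 50 deposited bases, at shifts of up to 1 base.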

Additional observations from a re-analysis of the deposited data

Results flagged for a closer look

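Of 15 sets of values over the late days of a lineage, 8 had a library that stood apart from the rest of its set by Dixon's test. The usual rate of about 1 in 20 sets does not apply here, because the rule used the Gr and Mono listings. Sums, numbers listed and portions outside the clone are measures of the same libraries, so the 8 are not separate. In Gr the library of day 266 stood apart with 145 members listed, 1.11% of reads and 1.31% of reads outside the expanding clone. In Mono it was again day 266, with 103 members and 0.513% of reads. In nRBC it was day 393, with 3 members, 0.0231% of reads and 1.27% of reads outside the clone. In Gr and in nRBC all other late libraries listed 0 members, so a single library with any reads is picked out. The rule required a myeloid listing. Gr and Mono listed 4871 and 3670 barcodes in all at day 266, but 12 to 197 in each later library. That day 266 stood apart in Gr and Mono was thus largely set by the choice.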

How the results depend on the processing

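The number of members depended strongly on the rule for a listed 0. With 1 floor of 0.0131% in all libraries it was 196, of which 6 were among the 221 (bc3440, bc3522, bc3538, bc6172, bc6386 and bc8860). It was 1601 when an early share of up to 0.01% was allowed and 17 when 2 myeloid and 2 lymphoid late libraries were required. Leaving out 1 late or early day gave 8 (without day 266) to 853 (without day 187), with 402 without day 32 and 341 without day 119. Without the Gr library of day 266, an alternative added after seeing the data, it was 111. Removing members within 2 mismatches of a more abundant barcode took away none, but no barcode of the whole table lay that close. With the single floor, whose members are largely other barcodes, mean late sums became 0.334% in T, 1.32% in B and 0.903% in Gr, and portions outside the clone 0.398%, 1.47% and 1.07%. Leaving out 1 day gave mean sums in T of 0.149% to 0.195%, in B of 0.433% to 0.525%, in Gr of 0 to 0.370% and in Mono of 0.0142% to 0.185%. Members called in T against B were 7 by DESeq2 (49.7% of all barcodes called), 2 with each 0 at 100 reads (28.3%), 2 without the day block (12.8%) and 54 of 214 tested with no filter on share (30.0%). The count of all barcodes called was 210, and 0 to 100 without 1 day (0 without day 494). The slope gave 1 member by DESeq2. No other alternative tried in either test gave a called member, but a filter of 0.05% in 2 libraries left no member to test. With 100 reads as the limit, shares below about 0.003% cannot be seen in most libraries.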
